A study of Mus musculus with 14 samples.

Results

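The ADAM and ADAMTS proteases examined here were Adam8, Adam9, Adam10, Adam12, Adam15, Adam17, Adam19, Adamts1, Adamts4 and Adamts5. A probe set (the group of short array probes that report on 1 transcript) was a member when the platform annotation named a single gene and that gene was on this list. This gave 24 of the 45037 probe sets that are not array controls, 17 for the 7 ADAM genes and 7 for the 3 ADAMTS genes, out of 18193 named genes on the array.

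RNA came from the mouse mammary epithelial line SCp2, kept in DMEM with 2% fetal calf serum in 35 mm dishes. MMP3 (stromelysin), a secreted matrix metalloproteinase, was the agent tested, and control dishes were plated in parallel for the same 3 days. Experiment A had 3 MMP3 and 3 control dishes, 1 of each agent at 50K, 100K and 250K plated cells (K as in the labels), and experiment B had 4 MMP3 and 4 control dishes, with 25K added. The labels do not say how MMP3 was prepared or at what dose it was given, and the 14 dishes are of 1 cell line. Each combination of agent, density and experiment was measured on 1 array, with no replicate dish. The spread behind each p-value is thus how far arrays lay from the fit, mostly a line over log density for each agent. It depends on the density term chosen, does not measure the spread between replicate dishes, and may be partly technical.

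ADAM proteases are mostly anchored in the plasma membrane, where several of them cut the outer parts off growth factors, cytokines, receptors and adhesion molecules, a process called ectodomain shedding. Adam10 and Adam17 are the main sheddases of epithelial cells: Adam17 releases several ligands of the EGF receptor and TNF, and Adam10 cuts Notch receptors and E-cadherin. ADAMTS proteases are secreted and carry thrombospondin repeats; Adamts1, Adamts4 and Adamts5 cut large proteoglycans such as versican and aggrecan. Several members of both families, though not all, are inhibited by TIMP proteins, of which Timp3 acts most broadly. In the mammary gland Adam17 is known for releasing amphiregulin during duct growth.

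Values are relative expression on the log2 scale, in which 0 is the median of the 14 arrays for that probe set. They show how a probe set varied between arrays but hold no level, so genes cannot be ranked by abundance and a gene near background cannot be told from one that did not change. In RNA from a whole dish, fewer cells of a kind and less RNA per cell cannot be told apart.

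Several arrays of experiment B went against their labels in the genes that set MMP3 apart from control in experiment A. Ifit1, an interferon-induced gene chosen for this from earlier results, lay between 2.83 and 4.21 on the MMP3 arrays of A, against -2.98 to -2.91 on the control arrays of A. In B it was high on the arrays labelled MMP3 50K (4.53), MMP3 250K (5.15), control 50K (3.71) and control 250K (4.26), and low on those labelled MMP3 25K (-2.83), MMP3 100K (-2.97), control 25K (-2.93) and control 100K (-2.93). The array labelled MMP3 100K of B also stood apart in spread, with an SD over probe sets of 0.869 against 0.232 to 0.412 on the other 13. Groups below are the deposited labels, experiment A is given alone as the result without the B arrays, and results of B are also given without MMP3 100K. Marker lists of macrophages, fibroblasts, endothelial cells and adipocytes had 0 genes called in A, and of 8 epithelial markers Cldn4 (2.49), Epcam (1.18) and Cdh1 (0.89) rose and Krt5 fell by 1.03; of the probe sets counted for these 8 markers, 5 varied past the 40th percentile of SD.

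In experiment A, MMP3 arrays were higher than control arrays for Adam9 and for 1 probe set of Adam15, the 2 of 24 member probe sets past an adjusted p of 0.05 (limma, Benjamini-Hochberg over all 45037 probe sets). Adam9 was 1.87 times as high on the MMP3 arrays, with an MMP3 effect of 0.90 on the log2 scale (SE 0.0378, adjusted p = 0.0298), and Adam15 was 1.42 times as high by probe set 1416080_at, with an effect of 0.51 (SE 0.0358, adjusted p = 0.042). Over all probe sets 4.11% were called in A, and 2 of 24 is too few to read as a result about the family. Leaving out any 1 of the 6 arrays of A gave 0 called members and 0 called probe sets; leaving out probe sets of low SD instead gave 6 called members, where 19.9% of the probe sets kept were called. Adam12 had the largest difference of the members in A, 2.79 (SE 0.279), and Adamts5 the lowest, -1.24 (SE 0.142), with adjusted p of 0.0589 and 0.0672 (limma). At an unadjusted p under 0.05, 9 of 24 members and 10347 of all 45037 probe sets passed, 6 of the members higher and 3 lower with MMP3; the 3 lower ones were all probe sets of Adamts5.

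The MMP3 and control arrays of A did not overlap for 13 of the 24 probe sets, 6 with MMP3 above and 7 below control. This separation was common on the array, with 53.6% of all probe sets not overlapping in A. The median MMP3 effect over the 24 members was 0.113, and over all named genes, each by its lead probe set, it was -0.0177.

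**Figure D1:**
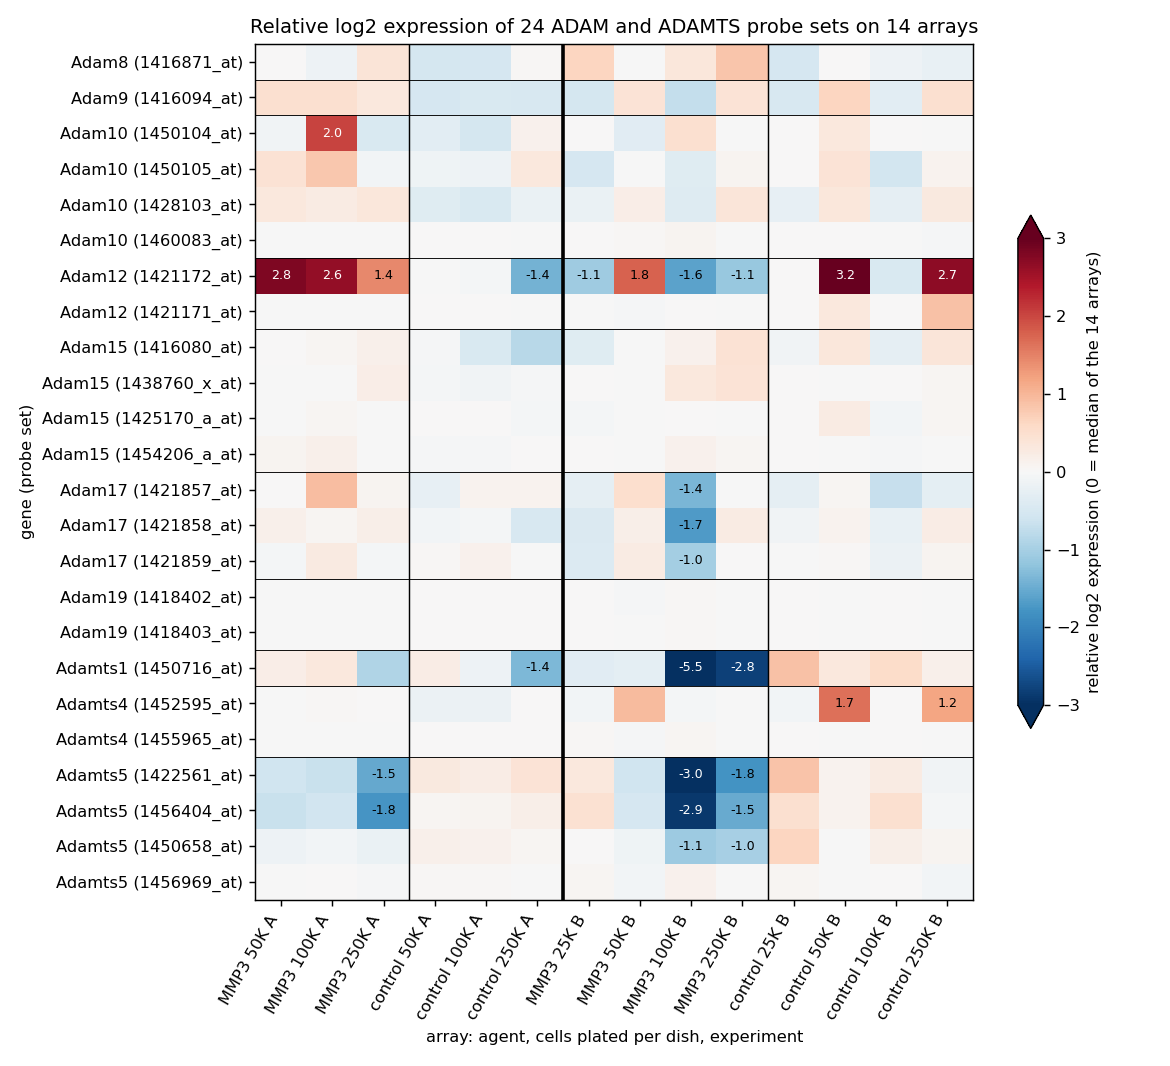
Relative log2 expression of the 24 probe sets (rows, grouped by gene) on the 14 arrays (columns, MMP3 left of control within each experiment). Colour runs from blue (below the median of the 14 arrays) to red (above), is clipped at -3 and 3, and values of 1 or more in size are printed; Adam12 and Adamts5 differ most between MMP3 and control in A, and Adamts1 and Adamts5 are lowest on MMP3 100K of B.

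The membrane-anchored members with a called change come first. Adam9 (probe set 1416094_at), a widely expressed ADAM with a role in shedding in mouse, had values of 0.48, 0.49 and 0.31 on the MMP3 arrays of A at 50K, 100K and 250K, against -0.51, -0.45 and -0.47 on the control arrays. In B, at 25K, 50K, 100K and 250K, it had -0.52, 0.40, -0.71 and 0.42 on the arrays labelled MMP3, against -0.48, 0.66, -0.31 and 0.48 on those labelled control. The groups were fully apart in A. In B they overlapped throughout, with both agents high at 50K and 250K and low at 25K and 100K.

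The order of the Adam9 group means was MMP3 of A at 0.43 ± 0.10 (SD, n = 3), control of B at 0.08 ± 0.57 (SD, n = 4), MMP3 of B at -0.10 ± 0.60 (SD, n = 4) and control of A at -0.48 ± 0.03 (SD, n = 3). The neighbours in this order differed by less than the SD of the B groups, and the ends of the order are the 2 groups of A. Adam9 was higher with MMP3 in 3 of 3 matched pairs of dishes in A and lower in 4 of 4 in B. The MMP3 effect of A minus that of B was 1.14 (SE 0.397), which did not pass after adjustment (limma, adjusted p = 0.454).

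On each of the 14 arrays Adam9 had the same sign as Ifit1. This was seen for 3 of the 24 members and for 4.63% of all probe sets, each probe set having 7 arrays above and 7 below its median. The other members that did so were probe sets 1428103_at of Adam10 and 1421858_at of Adam17. The sign opposite to Ifit1 on each of the 14 arrays was seen for 3 members, both Adam19 probe sets and 1455965_at of Adamts4, and for 32% of all probe sets. The genes whose values were most like Adam9 over the 14 arrays were Tnip1 (Pearson r = 0.985), Psen2 (r = 0.984) and Rhbdl2 (r = 0.984). Each gene was taken by its probe set with the highest correlation, so these values are the highest of a search. They are descriptive, and the arrays fall into separate sets for all of these genes.

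Adam15, which carries an integrin-binding motif in its disintegrin domain and is present at epithelial and endothelial cell contacts, was called through 1 of its 4 probe sets. That probe set, 1416080_at, had 0.00, 0.05 and 0.14 on the MMP3 arrays of A from 50K to 250K, against -0.04, -0.46 and -0.82 on the control arrays. The difference between the agents thus widened with density, from 0.04 at 50K to 0.97 at 250K. In B it had -0.36, -0.00, 0.12 and 0.44 on the MMP3 arrays from 25K to 250K, against -0.11, 0.34, -0.26 and 0.36 on the control arrays, and the groups overlapped. The call in A was lost with the matched dishes of a density as a block (effect 0.51, SE 0.232, limma adjusted p = 0.242) and without the agent by density product (limma, adjusted p = 0.193).

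The other Adam15 probe sets moved less. In A their MMP3 effects were 0.13 (SE 0.0445) for 1438760_x_at, 0.03 (SE 0.0307) for 1425170_a_at and 0.11 (SE 0.046) for 1454206_a_at, with adjusted p from 0.241 to 0.402 (limma). The first of these had the lowest unadjusted p of the members for both the density slope over 14 arrays and the agent by density interaction, with a slope of 0.07 per 2-fold more plated cells (limma, adjusted p = 0.22) and an interaction of 0.11 (limma, adjusted p = 0.997). Its highest values were 0.42 and 0.30, on the MMP3 arrays of B at 250K and 100K, and on the 3 control arrays of A it was at -0.11 to -0.03. The genes most like Adam15 by 1416080_at over the 14 arrays were Syvn1 (r = 0.94), Leng1 (r = 0.927) and Zfand2a (r = 0.917).

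Adam12, an ADAM of muscle and connective tissue that is also made by some breast tumours, varied more than any other member over the 14 arrays by SD, and its lead probe set stood at percentile 99.78 of SD among all probe sets. Probe set 1421172_at had 2.81, 2.64 and 1.44 on the MMP3 arrays of A, against -0.00, -0.06 and -1.41 on the control arrays. On the B arrays it had -1.06, 1.78, -1.61 and -1.14 on the arrays labelled MMP3 from 25K to 250K, against 0.00, 3.15, -0.47 and 2.68 on those labelled control. The MMP3 arrays were higher at each density in A and lower at each density in B, where both the highest value of the 14 (control 50K) and the lowest (MMP3 100K) lay.

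The Adam12 difference in A was 6.91-fold with a 95% interval of 1.84 to 3.74 on the log2 scale, and it missed the threshold (limma, adjusted p = 0.0589). With the matched dishes of a density as a block it was called, with an effect of 2.79 (SE 0.0362, limma adjusted p = 0.0203), as it was without the agent by density product (limma, adjusted p = 0.0245). In B the effect was -1.85 (SE 1.27), and -1.52 (SE 1.46) without MMP3 100K. The effect of A minus that of B was 4.90 (SE 1.35) (limma, adjusted p = 0.448). The other Adam12 probe set, 1421171_at, stayed near 0 on 12 arrays and reached 0.31 and 0.88 on control 50K and control 250K of B. It correlated with the first at r = 0.461 and had an MMP3 effect of -0.01 in A, so the large difference in A rests on 1 probe set of 2.

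**Figure D2:**
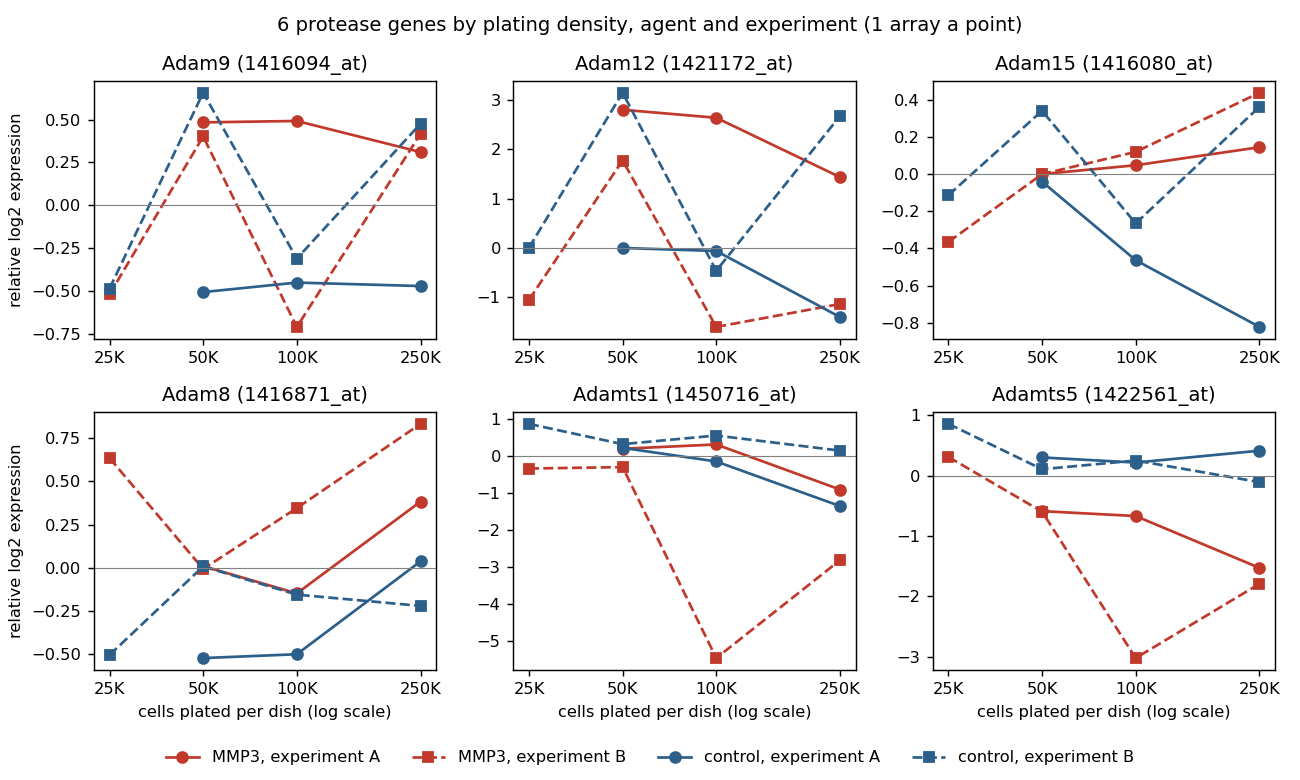
Relative log2 expression (y axis) of the most variable probe set of 6 genes against plated cells per dish (x axis, log scale), 1 array a point, MMP3 in red and control in blue, experiment A solid with circles and experiment B dashed with squares. Adamts5 is lower with MMP3 at each matched density in both experiments, whereas Adam9 and Adam12 are higher with MMP3 in A and lower in B.

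The probe sets of each main sheddase differed in their MMP3 effect in A, and those of Adam10 did not move as one. For Adam10 the most variable, 1450104_at, had -0.10, 2.04 and -0.45 on the MMP3 arrays of A, against -0.31, -0.52 and 0.13 on the control arrays. The value of 2.04 on 1 array is more than 1 above all its other values. Probe set 1428103_at had 0.32, 0.25 and 0.33 on the MMP3 arrays of A, against -0.36, -0.46 and -0.20 on the control arrays, a 1.56-fold difference with an effect of 0.64 (SE 0.0737, limma adjusted p = 0.0673). Here the groups of A were apart and the array with 2.04 on the first probe set did not stand out.

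In B, 1428103_at had -0.20, 0.20, -0.38 and 0.37 on the MMP3 arrays from 25K to 250K, against -0.25, 0.34, -0.26 and 0.30 on the control arrays. It was thus high at 50K and 250K and low at 25K and 100K with either agent, as Adam9 was. Its correlation with 1450104_at over the 14 arrays was 0.192, that of 1450105_at was 0.567, and 1460083_at stayed between -0.03 and 0.08 on all 14 arrays. The MMP3 effect of A minus that of B on 1428103_at was 0.70 (SE 0.193, limma adjusted p = 0.448).

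For Adam17, probe set 1421857_at had 0.01, 0.92 and 0.09 on the MMP3 arrays of A, against -0.25, 0.11 and 0.10 on the control arrays. Those of B were -0.26, 0.50, -1.37 and -0.01 on the MMP3 arrays from 25K to 250K, against -0.27, 0.06, -0.69 and -0.29 on the control arrays. The groups overlapped in both experiments. The 3 Adam17 probe sets had their lowest value on the same array, MMP3 100K of B, at -1.37, -1.69 and -1.01; that array was the lowest or the highest of the 14 for 14 of the 24 members and for 62.4% of all probe sets.

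Between Adam17 probe sets the MMP3 effect in A was 0.35 (SE 0.362), 0.34 (SE 0.0916) and -0.00 (SE 0.141), with adjusted p from 0.196 to 0.991 (limma). Probe set 1421858_at had 0.15, 0.06 and 0.17 on the MMP3 arrays of A, against -0.09, -0.06 and -0.49 on the control arrays. It was therefore apart in A, while the other 2 were not.

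**Figure D3:**
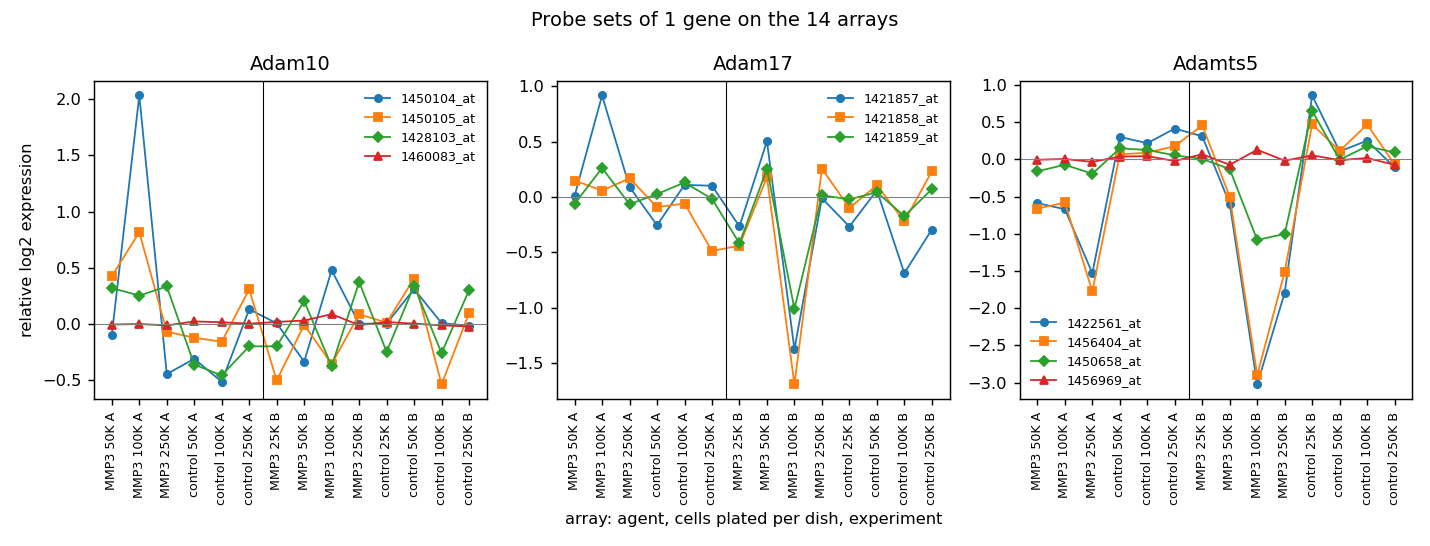
Relative log2 expression (y axis) of each probe set of Adam10, Adam17 and Adamts5 on the 14 arrays (x axis, MMP3 left of control within each experiment; 1 line a probe set). The 3 variable Adamts5 probe sets run together, and the Adam17 probe sets share a low on MMP3 100K of B. On MMP3 100K of A, 1 Adam10 probe set reaches 2.04 and another, 1450105_at, has its highest value, 0.815.

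Adam8, a protease of leukocytes that also appears in tumour cells, was higher with MMP3 in 6 of 7 matched pairs. It had 0.01, -0.15 and 0.38 on the MMP3 arrays of A, against -0.52, -0.50 and 0.04 on the control arrays. The B values were 0.64, -0.01, 0.35 and 0.83 on the MMP3 arrays from 25K to 250K, against -0.51, 0.01, -0.16 and -0.22 on the control arrays. The groups overlapped in A by control 250K and in B by MMP3 50K, and the pair at 50K in B, which differed by -0.01, was the one with MMP3 below control.

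Over the 14 arrays the Adam8 effect was 0.56 (SE 0.143, 95% interval 0.24 to 0.88), a 1.47-fold difference that did not pass after adjustment (limma, adjusted p = 0.121). It was 0.41 (SE 0.157) in A and 0.67 (SE 0.22) in B, so the experiments gave the same sign, which they did not for Adam9 or Adam12. Of 7 macrophage markers, cells that also express Adam8, 3 varied past the 40th percentile of SD, and the table holds no level by which a marker could be placed at 0. They averaged -0.03 to -0.01 per array with MMP3 and -0.01 to 0.26 with control in A. In B they averaged 0.06 to 0.68 with MMP3 and -0.02 to 0.06 with control; their part in the Adam8 values was not tested.

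Adam19, known from heart development in mouse, was flat: its 2 probe sets stayed between -0.04 and 0.05 on all 14 arrays, below the 40th percentile of SD. This holds no statement on whether the gene is expressed.

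Among the secreted proteases, Adamts5, an aggrecan- and versican-cutting enzyme, was the member with the steadiest direction. Its most variable probe set, 1422561_at, had -0.59, -0.67 and -1.53 on the MMP3 arrays of A, against 0.30, 0.22 and 0.41 on the control arrays. In B it had 0.31, -0.60, -3.02 and -1.79 on the MMP3 arrays from 25K to 250K, against 0.86, 0.11, 0.25 and -0.11 on the control arrays. MMP3 was below control in 7 of 7 matched pairs; the groups were apart in A, and in B the MMP3 25K array lay within the control range.

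The same direction was seen in 2 further probe sets of Adamts5. Probe set 1456404_at had -0.66, -0.58 and -1.77 on the MMP3 arrays of A, against 0.07, 0.09 and 0.18 on the control arrays, and 1450658_at had -0.16, -0.07 and -0.19 with MMP3, against 0.15, 0.13 and 0.05 with control. Both were lower with MMP3 in 7 of 7 pairs, and correlated with 1422561_at at r = 0.983 and 0.918. Of all probe sets, 2.38% were lower with MMP3 in 7 of 7 pairs and 2.18% were higher; of the 24 members, 3 were lower and 0 higher, the 3 being of 1 gene. The remaining probe set, 1456969_at, stayed between -0.07 and 0.13 and correlated with the first at -0.160.

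Over the 14 arrays the Adamts5 effect was -1.42 (SE 0.332, 95% interval -2.16 to -0.68), so that expression with MMP3 was 0.374 times that of control. It did not pass the threshold (limma, adjusted p = 0.0894). Of the 24 members 0 were called over the 14 arrays, against 0.619% of all probe sets; 6 members and 4570 of all 45037 probe sets passed at an unadjusted p under 0.05. In B alone the effect was -1.55 (SE 0.563, limma adjusted p = 0.654), where 0 members and 0% of all probe sets were called, with 4 members and 3230 of all 45037 probe sets at an unadjusted p under 0.05.

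Without the MMP3 100K array of B the Adamts5 effect over the remaining 13 arrays was smaller in size with a smaller SE, and 2 of its 4 probe sets were called, against 2.89% of all probe sets. It was -1.13 (SE 0.135, limma adjusted p = 0.0191) by 1422561_at and -0.96 (SE 0.131, limma adjusted p = 0.0205) by 1456404_at; 1450658_at was at -0.45 (SE 0.134, limma adjusted p = 0.12) and was not called. In B alone the effect by 1422561_at was then -1.06 (SE 0.17, limma adjusted p = 0.208) and was not called, where 0% of all probe sets were called. Adamts5 fell by 0.40 per 2-fold more plated cells over 14 arrays (SE 0.149), with an adjusted p of 0.531 (limma), and in A the control arrays had 0.22 to 0.41 with no such fall from 50K to 250K.

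Adamts1, which cuts versican and aggrecan and binds the matrix, had agent groups that were apart in B but not in A. In A it had 0.20, 0.31 and -0.90 on the MMP3 arrays, against 0.22, -0.15 and -1.35 on the control arrays, and the groups overlapped. Experiment B gave -0.34, -0.30, -5.45 and -2.81 on the MMP3 arrays from 25K to 250K, against 0.87, 0.32, 0.55 and 0.15 on the control arrays. In B the groups did not overlap, which held for 1 of the 24 members and for 5.58% of all probe sets, and the value of -5.45 on MMP3 100K was the lowest of any member on any array.

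The Adamts1 effect in B was -2.70 (SE 1.08, limma adjusted p = 0.72) and was -1.73 (SE 0.273, limma adjusted p = 0.204) without MMP3 100K, so that array changed its size by over 1.5 times. In A the effect was 0.29 (SE 0.27, limma adjusted p = 0.42). The difference between the experiments, A minus B, was 3.49 (SE 1.47, limma adjusted p = 0.494). Without MMP3 100K of B it was 2.03 (SE 0.63, limma adjusted p = 0.507). Across density Adamts1 was lowest at 250K in A with either agent, with a slope of -0.59 per 2-fold more cells (SE 0.142, limma adjusted p = 0.277).

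Adamts1 and Adamts5 are neighbours on the same chromosome, with 0 protein-coding genes starting between them in RefSeq's annotation of GRCm38.p6. Over the 14 arrays their lead probe sets correlated at r = 0.840, and at r = 0.642 without MMP3 100K of B, which gave the lowest value of both. In A the agents were placed differently for the pair of genes: Adamts5 was lower with MMP3 at each density and Adamts1 was lower at 50K alone, with a difference of -0.03.

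Adamts4, an aggrecanase, differed from 0 by more than 0.2 on 3 arrays, all of B. Probe set 1452595_at had -0.02, 0.03 and 0.00 on the MMP3 arrays of A, against -0.18, -0.17 and 0.01 on the control arrays. In B it had -0.08, 0.95, -0.06 and -0.00 on the MMP3 arrays from 25K to 250K, against -0.08, 1.66, 0.01 and 1.18 on the control arrays. The highs were on the arrays labelled control 50K, control 250K and MMP3 50K, and its other probe set, 1455965_at, stayed between -0.02 and 0.06.

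**Figure D4:**
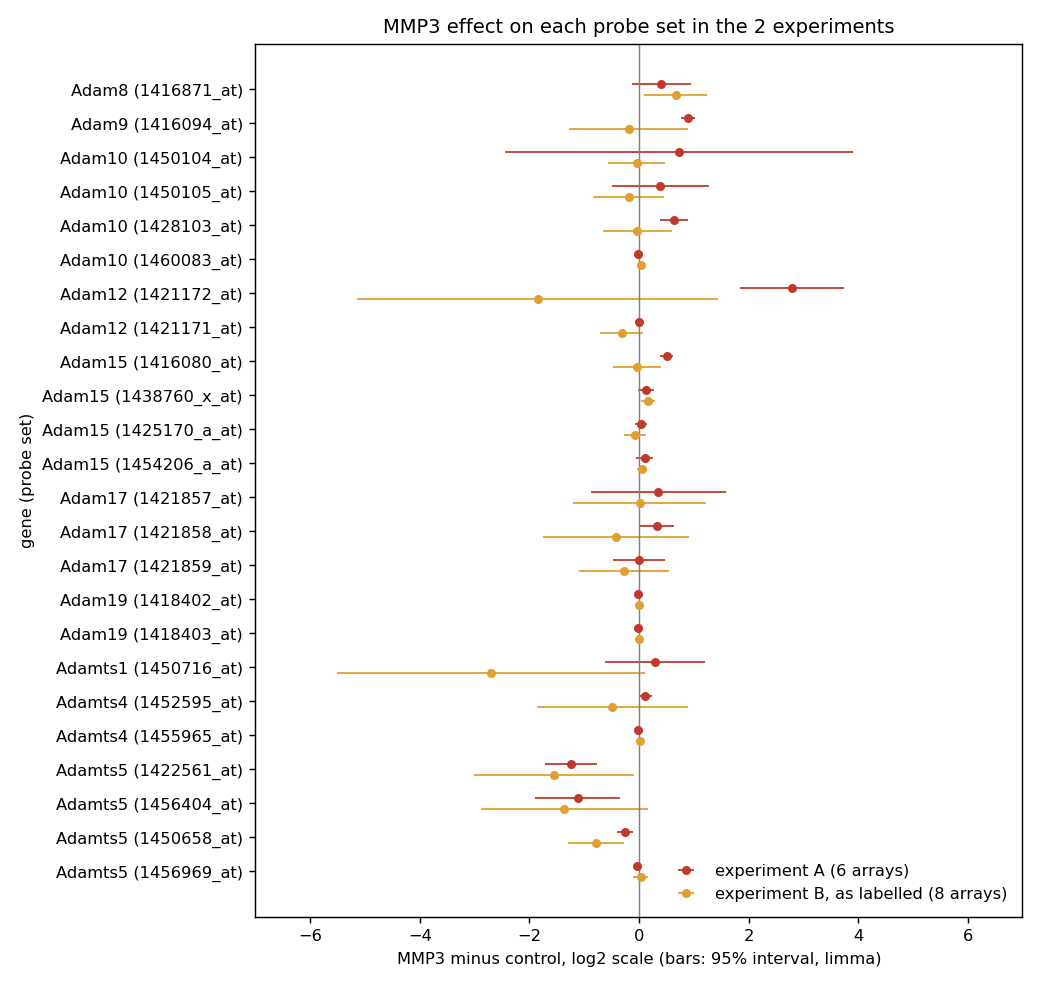
MMP3 minus control on the log2 scale (x axis) for each of the 24 probe sets (rows), in experiment A (red, 6 arrays) and in experiment B as labelled (yellow, 8 arrays); points are limma estimates and bars are 95% intervals. The estimates of Adamts5 lie below 0 in both experiments for 3 of its 4 probe sets, and that of Adam8 lies above 0 in both. That of Adam12 (1421172_at) lies above 0 in A and below 0 in B. Most bars cross 0 in each experiment, among them those of Adam8 in A, and of Adam12 and Adamts5 1456404_at in B.

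Promoter sequence was read for the members whose values are described above and for which RefSeq's table of GRCm38.p6 has an entry; 6 of the 10 genes matched. Shown are the 250 bases before the annotated start of Adamts1, whose values on the B arrays ran lowest of the members, of Adam17, a main sheddase, and of Adam15, called in A. They are printed 5′ to 3′ in the direction of the gene, with letters that match a searched motif, on either strand, in capitals.
Adamts1, chr16:85803114-85803363, minus strand: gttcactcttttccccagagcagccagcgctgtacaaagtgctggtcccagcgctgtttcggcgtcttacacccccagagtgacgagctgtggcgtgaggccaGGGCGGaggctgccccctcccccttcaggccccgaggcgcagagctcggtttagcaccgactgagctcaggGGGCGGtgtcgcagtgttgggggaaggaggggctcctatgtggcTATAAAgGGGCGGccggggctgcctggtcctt
Adam17, chr12:21373633-21373882, minus strand: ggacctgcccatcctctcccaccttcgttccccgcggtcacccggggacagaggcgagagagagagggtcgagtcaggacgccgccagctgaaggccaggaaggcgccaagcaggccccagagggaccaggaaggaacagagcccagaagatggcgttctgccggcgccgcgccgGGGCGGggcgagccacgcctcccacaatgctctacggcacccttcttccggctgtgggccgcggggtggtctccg
Adam15, chr3:89350029-89350278, minus strand: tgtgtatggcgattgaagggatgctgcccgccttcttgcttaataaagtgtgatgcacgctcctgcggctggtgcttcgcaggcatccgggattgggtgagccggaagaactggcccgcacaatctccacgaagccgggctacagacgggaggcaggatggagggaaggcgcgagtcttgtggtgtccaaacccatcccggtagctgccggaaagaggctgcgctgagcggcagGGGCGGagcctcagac

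The motifs searched, on both strands, were the GC box GGGCGG, the TATA box TATAAA, the TEAD motif GGAATG, the AP-1 motif TGANTCA and the core of the interferon-stimulated response element, by its name; they were chosen after the sequences had been seen. Adamts1 held a TATA box from -32 to -27 and GC boxes that start at -147, -76 and -25, Adam17 held a GC box from -75 to -70, and Adam15 held a GC box from -16 to -11, all counted from the start. Of 32851 promoters of this length 32.7% held the GC box, 12.4% the TATA box, 12.6% the TEAD motif, 6.75% the AP-1 motif and 2.98% the interferon element. In the 3 windows shown, 0 matches of the last 3 motifs were found. GC content was 65.6% for Adamts1, 70.4% for Adam17 and 62.0% for Adam15, against a median of 52.4% over all promoters.

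Plating density gave 0 called members in any of the fits. The slope was called for 0% of all probe sets in A, in B and over the 14 arrays, the agent by density interaction for 0%, and the difference between experiments in the MMP3 effect for 0% (limma, adjusted p under 0.05). At an unadjusted p under 0.05, the slope passed for 3 members in A (7054 of all 45037 probe sets), 2 in B (1406 of all) and 4 over the 14 arrays (3242 of all). The interaction passed for 1 member (822 of all) and the difference between experiments for 3 (4563 of all). The 3 slopes of A were those of Adam12 (-0.62, SE 0.147), Adamts1 (-0.59, SE 0.142) and Adam15 1416080_at (-0.14, SE 0.0188), with adjusted p from 0.205 to 0.277 (limma). These slopes average both agents: Adam15 1416080_at went down with density on the control arrays of A and up on the MMP3 arrays.

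The probe sets of 1 gene disagreed in 6 of the 7 genes that have several, where disagreement was taken as an opposite sign of the MMP3 effect in A or a correlation below 0.5 with the most variable probe set. Of 14 further probe sets 7 disagreed, 4 by sign and 6 by correlation. The 4 effects of opposite sign were all near 0, from -0.0201 to -0.00198 on the log2 scale. Adam17 disagreed by sign alone, and its further probe sets correlated with the most variable one at r = 0.718 and 0.854. In Adam10, Adam12, Adamts4 and Adamts5 a probe set that stayed near 0 on most arrays stood beside one that varied. The exception was Adam19, whose 2 flat probe sets correlated at r = 0.963 over a range of under 0.1.

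Genes around these proteases were counted by 1 probe set a gene, on lists chosen with earlier results known. Over all named genes 5.05% were called in A, and 146 of 18193 over the 14 arrays. Of 7 other ADAM genes on the array 0 were called in A, and of 17 other ADAMTS genes 0, with 0 and 2 at an unadjusted p under 0.05 (limma). Of 25 genes for the maturation and inhibition of these proteases, 3 rose, 0 fell and the others did not pass the test, with a median effect of 0.576 against -0.0177 over all genes. Over the 14 arrays 0 of the 25 were called, with a median effect of 0.0927 against -0.00466 over all genes. The 3 of A were Timp3, Rhbdf1 and Fblim1. Timp3, an inhibitor of several ADAMs and ADAMTSs, had 0.93 (SE 0.0239, limma adjusted p = 0.0217). Rhbdf1, an iRhom that carries Adam17 to the cell surface, had 0.91 (SE 0.0392, limma adjusted p = 0.0303). Fblim1, a filamin-binding adaptor, had 2.02 (SE 0.155, limma adjusted p = 0.0449). No role of Fblim1 in this maturation or inhibition is shown here, so the 3 count the list as written.

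Timp3 had 1.48, 0.94 and 0.34 on the MMP3 arrays of A, against 0.41, 0.01 and -0.44 on the control arrays, so both agents fell with density and the groups overlapped. Timp2, an inhibitor mainly of matrix metalloproteinases, had an effect of 1.74 (SE 0.182, limma adjusted p = 0.0618), and Tspan17, a tetraspanin of the group that escorts Adam10, had 1.64 (SE 0.187, limma adjusted p = 0.0669).

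Of 45 membrane proteins known to be shed by ADAMs, 9 rose, 1 fell and 35 did not pass in A, with a median effect of 0.664. Across all 14 arrays 1 rose and 0 fell, against 146 of all 18193 named genes called, and the median effect of the list was 0.0636. Those that rose included Csf1, a macrophage growth factor (3.10, SE 0.123), and the EGF receptor ligands Ereg (2.31, SE 0.186) and Btc (2.20, SE 0.166), with Cxcl16, a membrane-bound chemokine, at 2.01 (SE 0.0623). Efnb1, an ephrin, fell by 1.33 (SE 0.0809). Adjusted p for these 5 lay between 0.0238 and 0.048 (limma). Csf1 had 2.39, 2.05 and 0.91 on the MMP3 arrays of A, against -1.17, -1.33 and -1.44 on the control arrays, with the groups apart.

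Of 19 matrix proteins cut by ADAMTS proteases, 1 was called in A, Thbs1 (thrombospondin), at 3.13 (SE 0.146, limma adjusted p = 0.0319). Vcan (versican), the substrate shared by Adamts1, Adamts4 and Adamts5, had an effect of -0.03 (SE 0.0128, limma adjusted p = 0.241) by its most variable probe set. Over the 14 arrays Notch3, a receptor cut by ADAMs, was the one gene of the 5 lists that was called (1.77, SE 0.261, limma adjusted p = 0.0375). Of all 18193 named genes 146 were called there, so 1 gene is too few to read as a result about the lists.

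Array measures moved with agent in A. For the Gapdh control probe sets, the 3′ value less the 5′ value was 0.0405 to 0.166 on the MMP3 arrays and -0.0266 to 0.0299 on the control arrays, and the 18S control was 0.916 to 1.15 on the MMP3 arrays and 0.454 to 0.828 on the control arrays. The same measure of actin overlapped in A and was 0.654 on MMP3 100K of B, against at most 0.192 on the other 13 arrays. In B the 18S control was -0.65 to -0.0138 on the MMP3 arrays and -0.405 to 0.0138 on the control arrays, below each array of A. The part of these measures in the values of the proteases, and in the differences between A and B, was not tested.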

How the data were processed

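RNA from 14 dishes was measured on Affymetrix mouse expression arrays from 200 ng of total RNA, per the labels' protocols. The deposited table holds expression values that the authors obtained by RMA (per the submitters' processing notes); the version, further steps, log base and centring are not given in the sources consulted. Each of the 45101 probe sets had a 14-array median of 0 to within 1e-06, and the values spanned -7.18 to 6.62. The deposited values were taken as log2, the base that RMA gives, and folds rest on that. Raw intensities were not used here, so signal over background is unknown, and the number of arrays limits the precision.

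The labels gave the agent, the density and the experiment. Names of probe sets came from the platform annotation: 34945 had 1 symbol, 932 several and 9160 none, and no name was taken from the last 2 kinds. Models used limma 3.58.1 (lmFit, eBayes) in R 4.3.3 on the 45037 probe sets that are not controls, with no filter, agent, centred log2 density and their product, plus experiment as a block over all arrays. The block was part of the design since the letters stand for separate experiments in the labels; no further pairing check was made. Residual degrees of freedom were 2 in A, 4 in B, 9 over all arrays and 6 for the difference between experiments. The fit was tested on simulated data.

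All members were named, the lead probe set of a gene being that with the largest SD over the 14 arrays. For each member lead called in A the 3 genes with the highest correlation were named, and from each list up to 4 called genes with the largest effect in A; Timp2, Tspan17, Vcan, Notch3, Efnb1 and the epithelial markers were named after their values were seen. Members and lists were chosen with earlier results of these data known. Alternatives changed the filter, the unit, scaling, moderation, the density term, the block and the arrays used.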

Additional observations from a re-analysis of the deposited data

Results flagged for a closer look

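In groups of 4 arrays, an array was noted when its gap to the nearest other array, divided by the range of the group, was above Dixon's critical value at 95%; 48 groups were tested, and chance gives about 1 in 20. This held for 4 values, all of experiment B. Adam12 (1421172_at) was 1.78 on MMP3 50K, and Adamts4 (1452595_at) was 0.948 on MMP3 50K. Adam10 (1450104_at) was 0.309 on control 50K, and Adam15 (1438760_x_at) was 0.049 on control 250K.

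The MMP3 effect had opposite signs in the 2 experiments for every matched pair of dishes at 50K, 100K and 250K in 3 of the 24 probe sets. The share of all probe sets with this pattern was not counted, so the 3 cannot be read as a result about the members. The effect of A minus that of B was 1.14 for Adam9, 4.9 for Adam12 (1421172_at) and -0.0663 for Adam10 (1460083_at), the last over a range of 0.11 in all. None of the 3 differences passed after adjustment over all probe sets (limma, adjusted p from 0.448 to 0.499), and 0% of all probe sets did.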

How the results depend on the processing

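The 2 members called for MMP3 in A rest on 6 arrays and 2 residual degrees of freedom: leaving out any 1 array gave 0 to 0 called members, and 0 probe sets over the whole array. The fit without the agent by density product called 3 members and 5.58% of all probe sets (Adam9, Adam10 1428103_at and Adam12, with Adam15 lost). Leaving out 1 array of A in that fit, an alternative chosen after seeing the data, gave 0 members in 5 of 6 cases. Of all probe sets 0% to 2.4% were called in those 5 cases, and 1.63% in the case with 2 members. With a filter on probe sets of low SD 6 members were called, where 19.9% of all probe sets tested were (5379, against 1853 with no filter): Adam9, Adam10 1428103_at, Adam12, Adam15 1416080_at and Adamts5 1422561_at and 1456404_at. One probe set a gene with that filter gave 4, with 25.1% of all genes kept called. The mean of the probe sets of a gene gave 3 (Adam9, Adam12 and Adam15), with 9.02% of all genes. Each array centred on its median gave 1, with 2.14% of all probe sets, and robust moderation gave 1, with 2.11%. With matched dishes as a block 2 were called, Adam9 and Adam12, with 2.23% of all probe sets, and Adam15 was not.

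Over the 14 arrays 0 members were called for MMP3, 1 with one probe set a gene and the filter (Adamts5, with 2.75% of all genes kept called), and 0 to 2 when 1 array was left out, the 2 without MMP3 100K of B; over all probe sets that range was 0 to 1302. Without the replicate block, the MMP3 effect, the density slope and the interaction over all arrays gave 0 called members, as with it. For the MMP3 effect 0% of all probe sets were then called, against 0.619% with the block. The Adamts5 effect was -1.42 without the block. The remaining member counts, for MMP3 in B, the density slopes, the interaction and the difference between experiments, were 0 under each alternative run. When 1 array was left out, calls over all probe sets ran from 0 to 62 for the difference between experiments. For MMP3 in B, the density slopes and the interaction they were 0. The cause of these shifts was not tested, beyond the fewer arrays or probe sets that an alternative uses. Values near background could not be identified in a table without levels.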
